A study of Mus musculus with 8 samples.

Results

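The genes of the Polycomb repressive complexes were followed across 8 libraries of newly made RNA from mouse embryonic stem cells. A list of 37 gene symbols was matched to the gene names of the deposited table, which holds 16940 genes. Of these symbols 36 had a row, and all 36 passed the minimum mean of 10 normalized reads that left 15818 genes for testing. Cbx6 was not analysed here. The 36 genes comprise 6 core and 6 accessory genes of Polycomb repressive complex 2 (PRC2), 22 genes of Polycomb repressive complex 1 (PRC1), and the accessory genes Scmh1 and Scml2. The PRC1 genes divide into 8 for the RING and PCGF proteins, 6 for canonical and 8 for variant complexes.

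Polycomb complexes keep developmental genes silent in cells where they are not needed. PRC2 methylates lysine residues on the tail of histone H3, and PRC1 attaches ubiquitin to histone H2A. In embryonic stem cells both complexes sit mainly at CG-rich promoters of lineage regulators, and canonical PRC1, which carries a CBX and a PHC protein, also compacts chromatin and brings distant Polycomb-bound sites together. Variant PRC1 carries RYBP or YAF2 in place of the CBX protein.

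The cells were of the E14 line, and in all 4 groups CTCF, the DNA-binding protein that halts cohesin at loop anchors, carried an auxin-inducible degron (AID) through which the auxin IAA removes the tagged protein. All 4 groups also carried an overexpression construct. Cells with the control construct were taken either untreated or 12 h into IAA treatment, and cells with a construct for wild-type or for mutated CTCF 12 h into IAA treatment. The labels name neither the mutation, nor the promoter of the constructs, nor how many clones were used. Cells were grown without serum in the presence of LIF, PD0325901 and CHIR99021. Newly made RNA was captured by TT-seq after a 15 min pulse with 400 µM 4-thiouridine in all groups. Each group had 2 replicates. The labels do not say whether these came from separate cultures, so the p-values measure only the spread between these libraries, which may be technical.

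Depth, inferred from the steps between the deposited values, lay between 15671114 and 21561141 reads per library, and across genes Pearson's r of log2 values was 0.995 to 0.996 between replicates and 0.983 to 0.990 between groups. All 6 embryonic stem cell markers on the marker list had a row. Their summed level was 46489 and 47211 normalized reads in the untreated libraries, 48886 and 50338 in the control with IAA, 53431 and 56447 with wild-type CTCF and 52953 and 55315 with mutated CTCF, and its part in the results was not tested. None of the 6 fibroblast feeder markers had a row. Of 6 primitive endoderm markers 3 were listed, with a summed level of 89.4 to 144 normalized reads, and with IAA in the control line Pdgfra among them rose by 1.78 and Gata6 fell by 0.59 on the log2 scale. The 1 listed marker of 2-cell-like cells, Zscan4d, stood at 3.30 to 15.7 normalized reads and was highest in both wild-type CTCF libraries.

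Levels of different genes were compared per kilobase of gene span, because labelled RNA can come from introns as well as exons and the counted feature is not given in the sources used here. On that scale, as the median over the 8 libraries, Mtf2 had the highest level of the 36, with 524 normalized reads per kb. Mtf2 makes a PRC2 partner that recruits the complex to CG-rich DNA. Suz12, the scaffold of PRC2, followed with 256, Rybp with 242, and Eed, the subunit that reads the methyl mark, with 194. At the low end stood Phf19 with 2.11, Cbx8 with 3.17 and Pcgf5 with 5.61 normalized reads per kb.

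Some paralogs that can take the same place in a complex were transcribed at very different levels per kb of gene span, and others at similar ones. Ezh2, the main methyltransferase of PRC2, stood at 114 normalized reads per kb, with a range of 109 to 124 over the libraries, and its paralog Ezh1 at 14.0, with a range of 12.6 to 15.3. The ubiquitin ligase gene Rnf2 (RING1B) stood at 78.9 and Ring1 (RING1A) at 7.70. Among the Polyhomeotic genes, whose SAM domains link PRC1 units, Phc1 stood at 148, Phc3 at 42.7 and Phc2 at 7.53. Among the CBX genes, whose chromodomains bind methylated histone H3, Cbx7 stood at 61.2, Cbx2 at 12.5 and Cbx8 at 3.17. For each of these genes the libraries of the higher and the lower paralog did not overlap, and the order was the same per kb of annotated exons. By contrast Bmi1, with a range of 28.7 to 44.6 over the libraries, overlapped Pcgf2 with 30.7 to 43.8. Bmi1 was above Pcgf2 in the libraries of 3 groups and below it in both mutated CTCF libraries, while per kb of exons Pcgf2 was the higher in all 8. The paralogs Bcor and Bcorl1 had close medians of 11.4 and 14.2. Per kb of exons the order of that pair turned, with Bcor at 143 to 183 and Bcorl1 at 89.7 to 123 over the libraries. The scale moved other genes too: Pcgf5 stood 34th of 36 per kb of span and 31st per kb of exons, and Yaf2 29th and 16th.

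**Figure D1:**
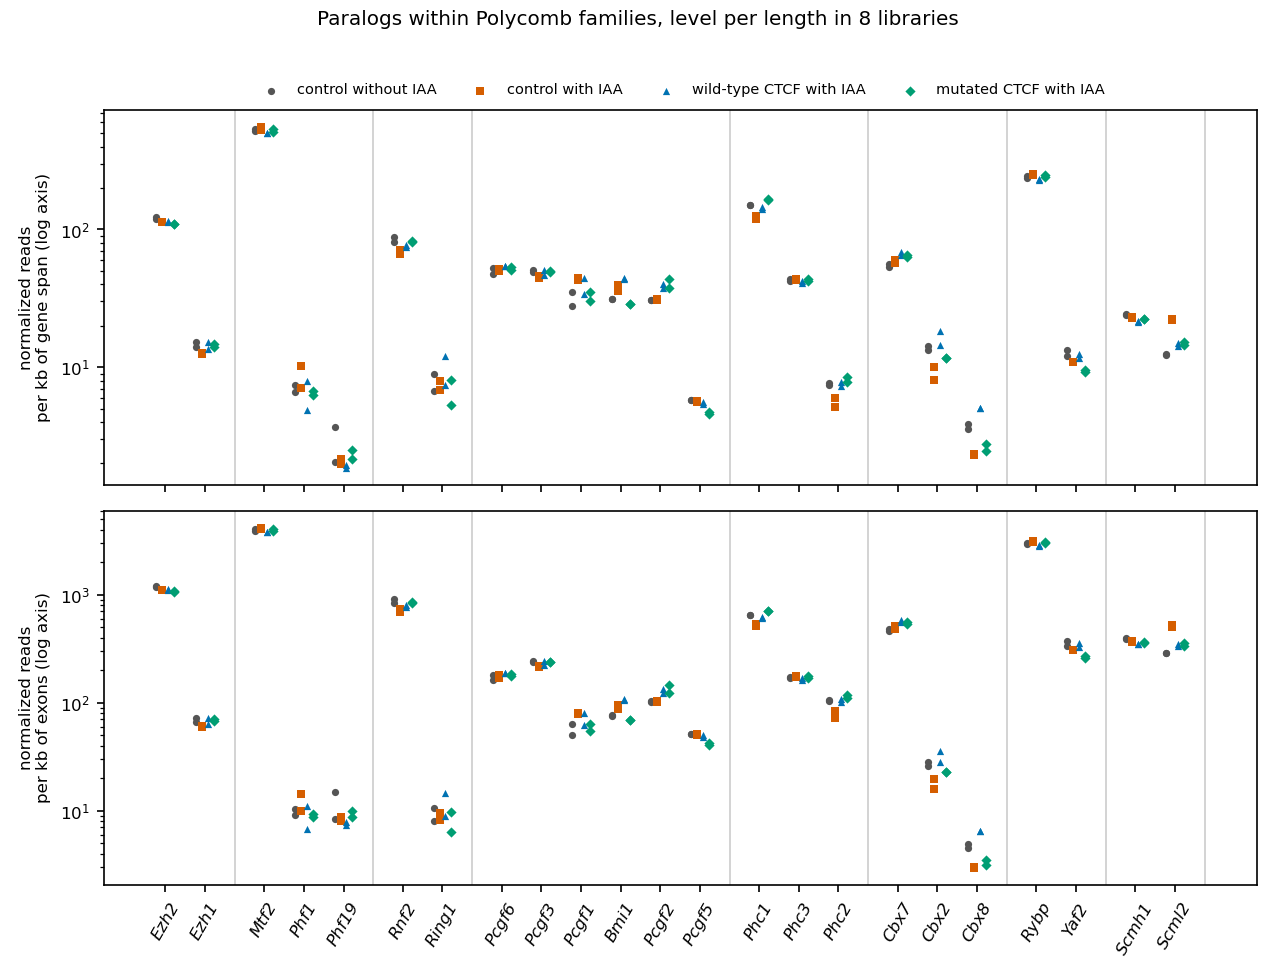
Normalized reads of paralogous Polycomb genes per kb of gene span (upper panel) and per kb of exons (lower panel), on log axes. There is 1 point per library, with the 4 groups in different colours and markers. Per kb of span, Ezh2 at a median of 114 sits far above Ezh1 at 14.0, while the ranges of Bmi1 and Pcgf2 overlap.

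All differences below are limma log2 fold changes on the log2(value + 1) scale, fitted over all tested genes, and "passed" means a Benjamini-Hochberg adjusted p under 0.05 over those genes. The IAA comparison and the comparisons of each CTCF form with the control share the control-with-IAA libraries, so they are not independent of each other and their values are given side by side. The 36 Polycomb genes had a median level of 1288 normalized reads against 249 for all tested genes, and a median standard error of 0.053 against 0.103. They therefore pass the test with smaller changes than a typical gene, and counts of passing genes are set beside the size of the changes. In such bulk libraries a change in fewer cells and less RNA from every cell cannot be told apart. In the first 4 comparisons every call of a Polycomb gene not said to hold under all 17 settings was lost without the mean-variance trend, except those of Bmi1 and Cbx2 with IAA and both of Cbx8, which were lost under other settings. Of the 108 results over all 6 comparisons that did not pass, 40 passed under at least 1 alternative, so a gene said not to pass is not shown to be unchanged.

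With IAA in the control line the Polycomb genes moved in both directions, and among those that passed the accessory gene Scml2 rose most while the canonical PRC1 genes Cbx2 and Phc2 fell most. In all, 18 of the 36 passed, 8 higher and 10 lower, against 37.7% of all tested genes (19.4% higher and 18.4% lower). With equal totals the split was 7 higher and 12 lower, and the higher share of all called genes went from 51.3% to 38.5%; with median-of-ratios rescaling 9 were higher and 10 lower. Only Scml2 and Cbx2 passed with a change of 0.5 or more on the log2 scale, as 13.4% of all tested genes did. The median absolute log2 fold change was 0.13 for the Polycomb genes and 0.19 for all tested genes. The same calls came out under all 17 alternative settings for 5 of the 18: Scml2 and Bcor, which rose, and Phc1, Phc2 and Rnf2, which fell.

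With wild-type CTCF, set against the control with IAA, 5 of the 6 canonical PRC1 genes rose and Scml2 fell, while Phc3 was at -0.06 without passing (adjusted p = 0.293). Of the 36 genes 15 passed, 11 higher and 4 lower, against 31.6% of all tested genes (21.5% higher, the rest lower). All tested genes were shifted upward by a median of 0.06 in this comparison, and with median-of-ratios rescaling, which removes that shift, 9 members were higher and 8 lower. With equal totals the split was 10 higher and 7 lower. Cbx8, Cbx2 and Scml2 passed with a change of 0.5 or more, against 8.35% of all tested genes, and Cbx8 alone with 1 or more, against 1.90%. Calls for Phc1, Phc2, Cbx2 and Scml2 held under all 17 settings, and those for Cbx7 and Cbx8 did not.

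With mutated CTCF, set against the same control, 21 of the 36 genes passed, 12 higher and 9 lower, against 34.3% of all tested genes (22.0% higher and 12.4% lower). The split was 9 higher and 12 lower with median-of-ratios rescaling and 11 higher and 12 lower with equal totals. All 3 canonical PRC1 genes and all 4 PRC2 core genes that passed were higher, and the largest fall after that of Scml2 was in Aebp2. The median absolute log2 fold change of 0.21 lay above the 0.18 of all tested genes. Only Phc2 and Scml2 passed with at least 0.5, against 9.36% of all tested genes. Of the 21 calls 13 held under all 17 settings: Eed, Suz12, Rbbp4, Rnf2, Pcgf2, Phc1, Phc2 and L3mbtl2 higher, and Aebp2, Pcgf5, Bmi1, Bcorl1 and Scml2 lower.

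Set directly against each other, the 2 CTCF forms differed most at Cbx8, Bmi1 and Aebp2, all lower with mutated CTCF. In this comparison 15 of the 36 genes passed, 7 higher and 8 lower with mutated CTCF, against 34.7% of all tested genes (16.3% higher and 18.4% lower). The 3 genes just named passed with a change of 0.5 or more, against 12.3% of all tested genes, and the median absolute log2 fold change was 0.10 against 0.18. The calls of 7 genes held under all 17 settings: Aebp2, Pcgf5, Bmi1, Yaf2, Bcor and E2f6 lower with mutated CTCF, and Phc1 higher.

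**Figure D2:**
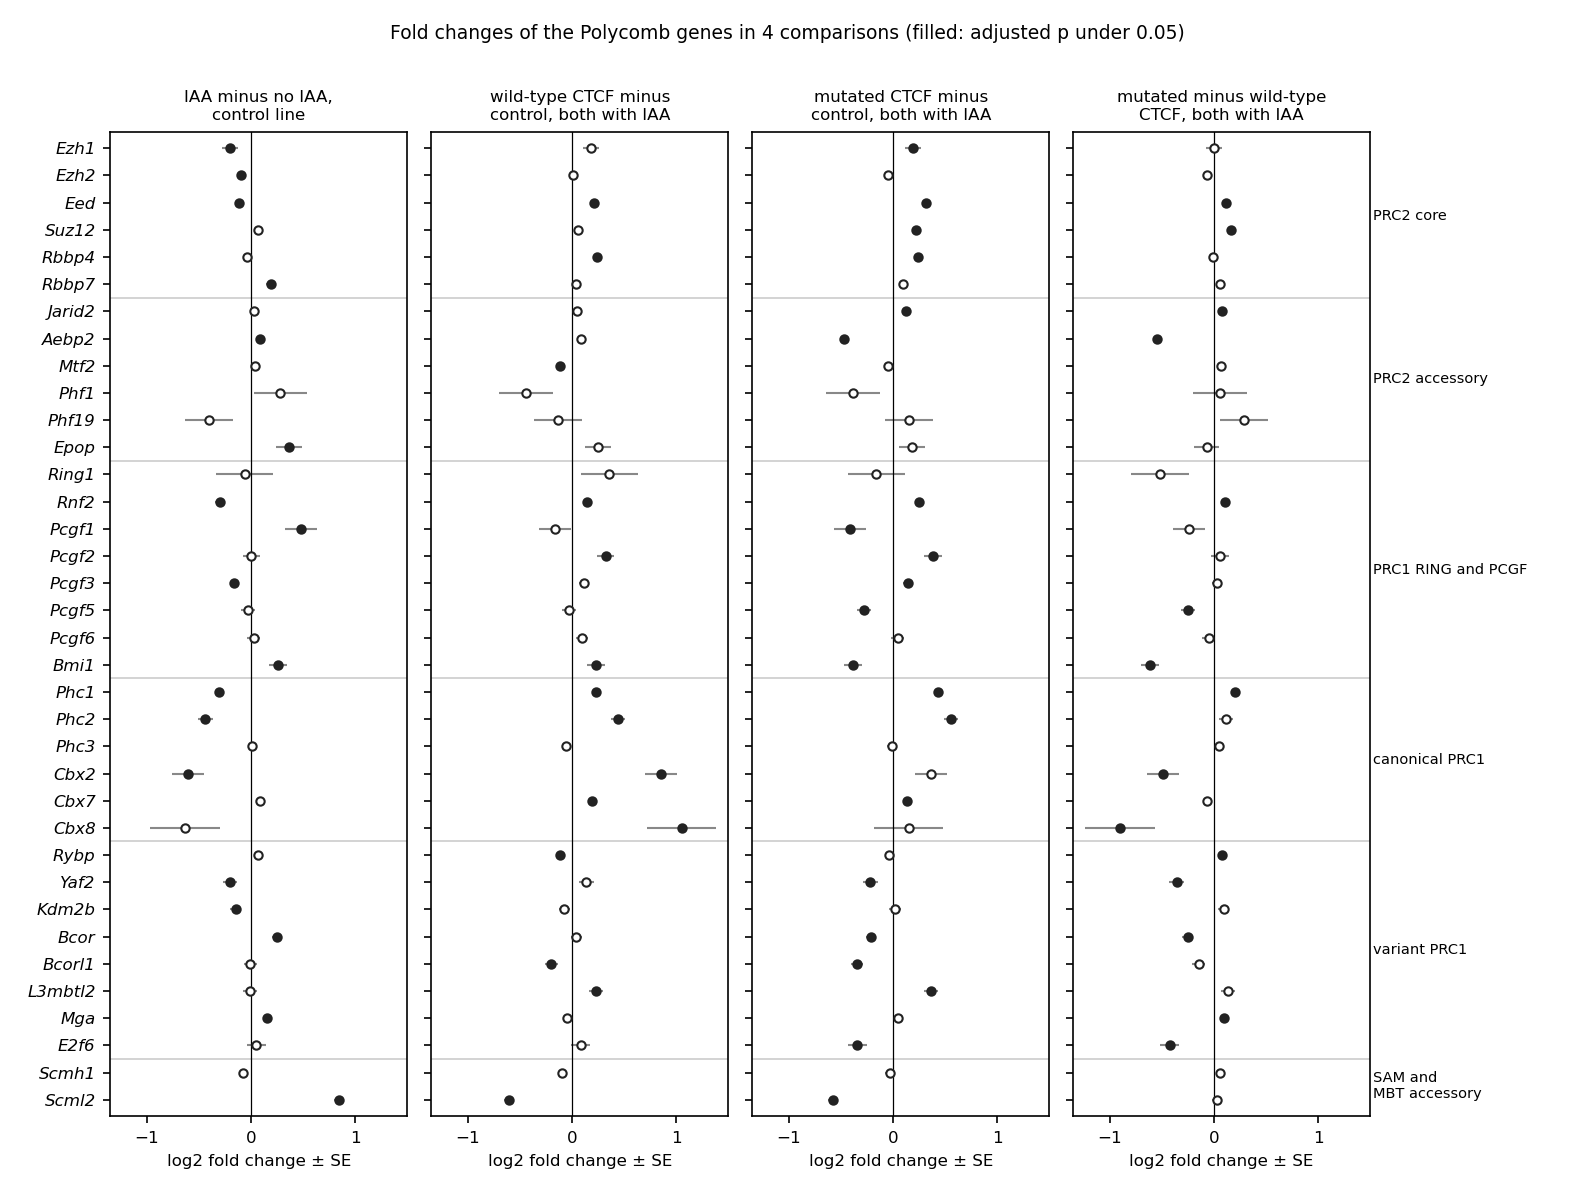
Log2 fold changes of the 36 Polycomb genes in 4 comparisons, 1 column each, ordered by complex. Bars are the limma standard error to either side, and filled points mark an adjusted p under 0.05. Most points lie within 0.5 of the zero line, and Scml2, Cbx2, Cbx8, Phc2, Bmi1 and Aebp2 are the genes that pass beyond it.

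Scml2, on the X chromosome (GRCm38 chrX:161117193-161258213, plus strand), makes an MBT and SAM domain protein that associates with PRC1. The 300 bases around its RefSeq start (GRCm38.p6 chrX:161162500-161162799, plus strand) are printed because its change with IAA was the largest among the Polycomb genes. The gene span given above starts further upstream, so these bases lie inside it and not at its start. Capitals mark the single match to CCCTC, the word from which CTCF has its name, which lies on the opposite strand and so reads GAGGG.

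Scml2 promoter: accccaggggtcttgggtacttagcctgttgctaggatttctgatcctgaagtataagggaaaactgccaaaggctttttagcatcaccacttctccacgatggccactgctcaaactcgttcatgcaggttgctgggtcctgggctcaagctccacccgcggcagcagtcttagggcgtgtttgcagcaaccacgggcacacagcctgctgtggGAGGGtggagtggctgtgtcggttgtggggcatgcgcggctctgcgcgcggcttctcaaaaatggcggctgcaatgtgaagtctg

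Scml2 stood at 1740.2 and 1752 normalized reads in the untreated control and at 3083 and 3176 in the control with IAA. The wild-type CTCF libraries held 2015 and 2103, and the mutated CTCF libraries 2155 and 2048. Both control-with-IAA libraries were therefore above all 6 others, and those of the 2 CTCF forms overlapped each other and lay between the untreated and the depleted levels. Scml2 rose with IAA by 0.84 ± 0.04 on the log2 scale (SE, 2 replicates a group, limma adjusted p = 5.87e-19), which is 1.79-fold. It fell by 0.60 with wild-type CTCF and by 0.57 with mutated CTCF against the depleted control (adjusted p = 5.26e-14 and 1.67e-13). Between the CTCF forms the difference was 0.03, with a 95% interval from -0.06 to 0.12. Against the untreated control Scml2 remained higher by 0.24 with wild-type and by 0.27 with mutated CTCF, and both passed (adjusted p = 3.33e-05 and 5.81e-06). The 5 calls held in all 17 alternative settings. Scmh1, which makes a related MBT and SAM domain protein, passed in none of the first 4 comparisons, and its log2 fold changes there ran from -0.09 to 0.06. With equal totals it passed as lower with IAA (-0.13) and with wild-type CTCF (-0.12), and the second passed also after median-of-ratios rescaling (-0.15) and with the replicate block (-0.09). Against the untreated control Scmh1 was lower with wild-type (-0.17) and with mutated CTCF (-0.11), and both passed (limma adjusted p = 0.000668 and 0.0283). The wild-type call held in all 17 settings, and the mutated CTCF call was lost in 4.

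**Figure D3:**
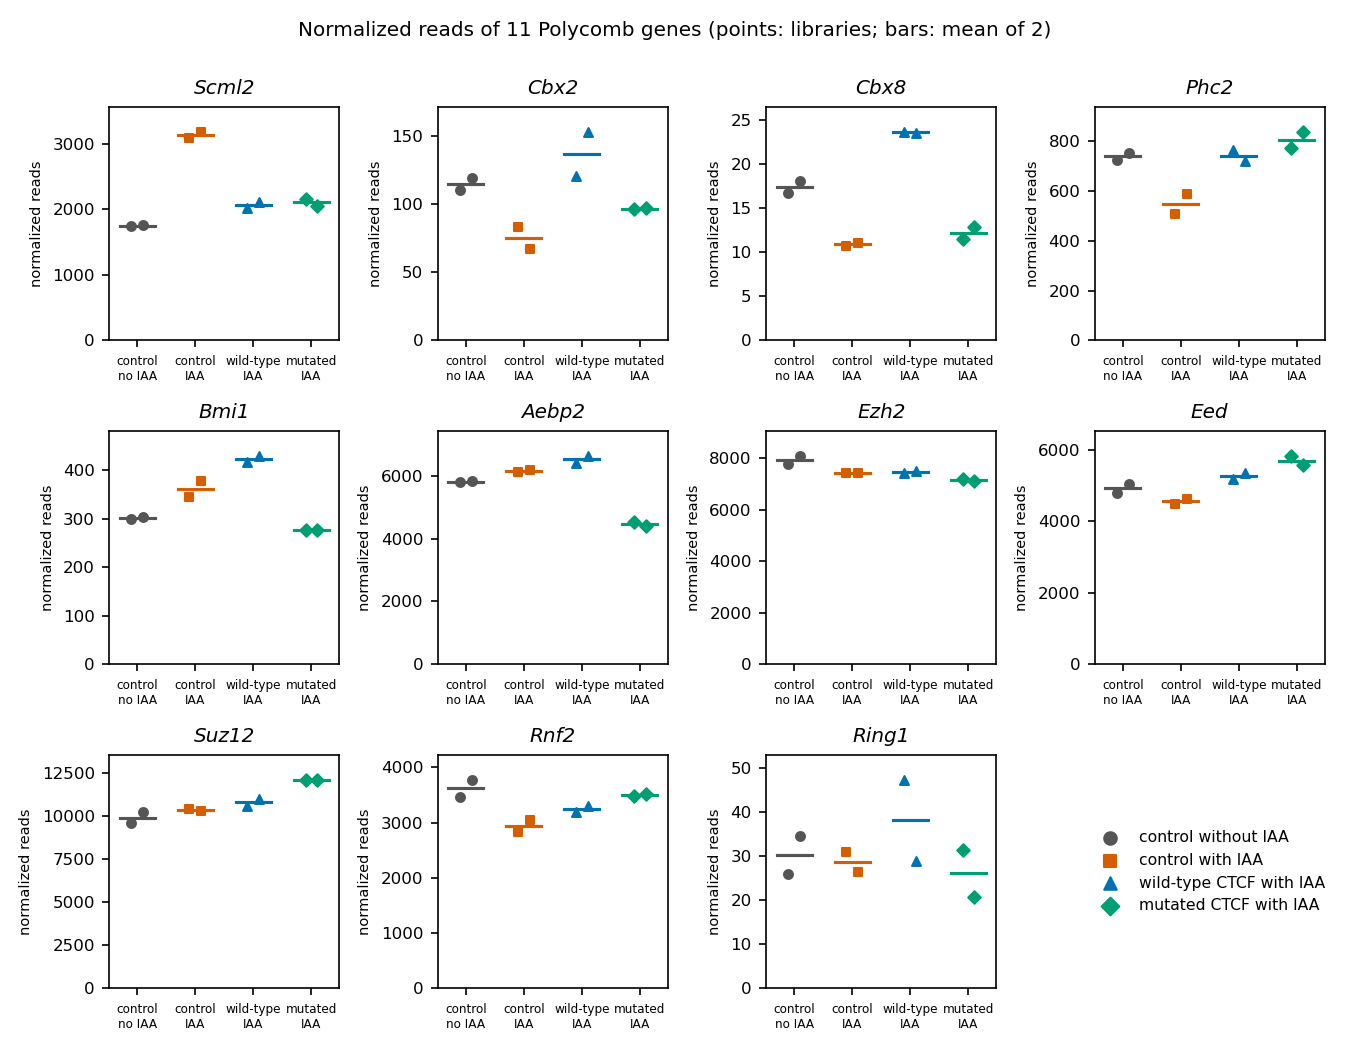
Normalized reads of 11 Polycomb genes in the 8 libraries, 1 panel per gene with axes from 0; points are libraries and bars the mean of the 2 replicates. Scml2 is highest in the control with IAA at 3083 and 3176, while Aebp2 and Bmi1 are lowest in the mutated CTCF libraries.

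In canonical PRC1, 3 of 6 genes fell with IAA and none rose, 5 rose with wild-type CTCF, and 3 did so with mutated CTCF, where 37.7%, 31.6% and 34.3% of all tested genes passed in either direction. Their median log2 fold change was -0.37 with IAA, 0.34 with wild-type and 0.26 with mutated CTCF, where all tested genes had medians of -0.00, 0.06 and 0.06. Phc3 did not pass in any of the 6 comparisons, but with wild-type CTCF it passed as lower than the depleted control after either rescaling (-0.11 with median of ratios and -0.09 with equal totals). Against the untreated control Phc3 passed as lower with wild-type CTCF after either rescaling (-0.13 with equal totals). With mutated CTCF it did so with equal totals alone (-0.09, limma adjusted p = 0.0382).

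Cbx2 and Cbx8 are neighbours on chromosome 11, on opposite strands with 5.0 kb between them (GRCm38 chr11:119022962-119031270 and chr11:119036305-119040969). Both make chromodomain proteins of canonical PRC1. Cbx2 stood at 110.3 and 119 normalized reads in the untreated control, 83.4 and 67.1 with IAA, 121 and 153 with wild-type CTCF, and 96.1 and 96.9 with mutated CTCF. The groups did not overlap, and their order was wild-type CTCF, untreated control, mutated CTCF and depleted control. Cbx2 fell with IAA by 0.61 ± 0.15 (SE, limma adjusted p = 0.00154), rose with wild-type CTCF by 0.85 (adjusted p = 3.56e-05), and was 0.36 higher with mutated CTCF without passing (adjusted p = 0.0632). The last value passed at 0.52 without control-with-IAA replicate 1 (adjusted p = 0.032) and was 0.21 without control-with-IAA replicate 2 (adjusted p = 0.416). It was lower with mutated than with wild-type CTCF by 0.49 on the log2 scale, a log2 fold change of -0.49 (adjusted p = 0.0115). That call was lost without wild-type CTCF replicate 2 (-0.32, adjusted p = 0.217), without mutated CTCF replicate 1 (-0.48, adjusted p = 0.0509) and without the mean-variance trend. The IAA call was lost without control-with-IAA replicate 2 (-0.45, adjusted p = 0.0508).

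Cbx8 was among the lowest members, with 9 to 27 inferred reads per library. It stood at 16.7 and 18.1 normalized reads in the untreated control, 10.7 and 11.0 with IAA, 23.6 and 23.5 with wild-type CTCF, and 11.5 and 12.9 with mutated CTCF. As for Cbx2, both wild-type CTCF libraries were the highest and both depleted libraries the lowest. Cbx8 rose with wild-type CTCF by 1.05 ± 0.33 (SE, adjusted p = 0.0137), and it was lower with mutated than with wild-type CTCF, with a log2 fold change of -0.90 (adjusted p = 0.0319). The change with IAA of -0.63 did not pass (adjusted p = 0.134), except without the mean-variance trend (adjusted p = 0.00349). The first call was lost without control-with-IAA replicate 1 (1.03, adjusted p = 0.0566), wild-type CTCF replicate 1 (1.05, 0.0635) or wild-type CTCF replicate 2 (1.05, 0.0808). The second was lost without any one of the 4 libraries it compares, with log2 fold changes of -0.98 to -0.83 and adjusted p of 0.0655 to 0.131.

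The Polyhomeotic gene Phc2 spans 98.2 kb on chromosome 4 (GRCm38 chr4:128654702-128752881, plus strand). RefSeq gives 3 starts for it, and the 300 bases around the first (GRCm38.p6 chr4:128654452-128654751) are printed, since after Cbx2 it had the largest fall with IAA that passed. Capitals mark 5 matches to CCCTC on either strand, 2 of them adjoining.

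Phc2 promoter: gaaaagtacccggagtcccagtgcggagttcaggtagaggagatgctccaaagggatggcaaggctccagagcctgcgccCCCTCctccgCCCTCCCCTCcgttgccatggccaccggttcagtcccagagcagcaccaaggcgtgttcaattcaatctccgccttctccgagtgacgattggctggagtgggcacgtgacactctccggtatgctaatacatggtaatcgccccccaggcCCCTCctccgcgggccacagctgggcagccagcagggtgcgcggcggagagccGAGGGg

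Phc2 stood at 726 and 753 normalized reads in the untreated control, 506 and 587 with IAA, 762 and 721 with wild-type CTCF, and 772 and 836 with mutated CTCF. The 2 depleted libraries were below all 6 others, and the 2 mutated CTCF libraries above all 6 others. Phc2 fell with IAA by 0.44 ± 0.07 (SE, adjusted p = 2.34e-06) and rose by 0.44 with wild-type and 0.56 with mutated CTCF (adjusted p = 3.88e-06 and 2.93e-08). The difference between the CTCF forms was 0.12 (95% interval -0.02 to 0.26), and the wild-type libraries differed from the untreated ones by 0.00 (-0.14 to 0.15). Phc1 differed between all 3 groups with IAA. It fell by 0.31 with IAA, rose by 0.23 with wild-type and by 0.44 with mutated CTCF, and was higher with mutated than with wild-type CTCF by 0.21 (adjusted p = 7.62e-05). Cbx7, the highest of the 3 CBX genes per kb, did not pass with IAA (0.09, adjusted p = 0.0944; 0.0454 after median-of-ratios rescaling) and rose by 0.19 with wild-type and by 0.13 with mutated CTCF. The second of these was lost without control-with-IAA replicate 1 (0.10, adjusted p = 0.171) or mutated CTCF replicate 2 (0.11, adjusted p = 0.118), and with median-of-ratios rescaling (0.08, adjusted p = 0.0722).

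Among promoters of 300 bases in the RefSeq table, 66.0% of all 32851 held CCCTC on either strand, and 35 of the 44 entries for 31 matched Polycomb genes (79.5%) did. A longer CTCF motif with gaps, also searched on both strands, was in 2.4% of all entries and in 0 of the 44. The Polycomb entries were rich in CG, with a median of 23 CG dinucleotides against 7 over all entries, so the 2 sets of promoters differ in base composition. Cbx2, Epop, Pcgf1, Rybp and Yaf2 have no entry there.

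The catalytic centre of PRC1 pairs RING1A or RING1B with 1 of 6 PCGF proteins, and the PCGF protein sets which type of complex forms. Rnf2 stood at 3470.45 and 3771 normalized reads in the untreated control, 2830.2 and 3048 with IAA, 3191 and 3309 with wild-type CTCF, and 3488 and 3517 with mutated CTCF. The depleted libraries were the lowest, and the mutated CTCF libraries lay within the range of the untreated ones. Rnf2 fell with IAA by 0.30 ± 0.04 (SE, adjusted p = 2.94e-07) and rose by 0.15 with wild-type and by 0.25 with mutated CTCF (adjusted p = 0.00803 and 9.39e-06). The call for wild-type CTCF was lost with median-of-ratios rescaling, without control-with-IAA replicate 1 (0.09, adjusted p = 0.216) and without wild-type CTCF replicate 2 (0.12, adjusted p = 0.0758). Rnf2 was higher with mutated than with wild-type CTCF by 0.11 (adjusted p = 0.0463), a call lost without wild-type CTCF replicate 1 (0.08, adjusted p = 0.219) or either mutated CTCF library (0.10 and 0.11).

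Ring1 stood at 25.9 and 34.5 normalized reads in the untreated control, 31.0 and 26.4 with IAA, 47.2 and 28.9 with wild-type CTCF, and 31.3 and 20.8 with mutated CTCF. All 4 groups overlapped, and Ring1 passed in none of the 6 comparisons. Without wild-type CTCF replicate 2 it passed as lower with mutated than with wild-type CTCF (-0.86, adjusted p = 0.0352, against -0.52 and 0.144 with all libraries). At this level the test was wide: the change with IAA of -0.06 had a 95% interval from -0.62 to 0.49.

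Bmi1 (Pcgf4), a PCGF gene of canonical PRC1, separated the CTCF forms most clearly in this group. It stood at 300.1 and 303 normalized reads in the untreated control, 344 and 378 with IAA, 417 and 429 with wild-type CTCF, and 276 and 276 with mutated CTCF. The wild-type libraries were the highest and the mutated ones the lowest, with no overlap between any 2 groups. Bmi1 was lower with mutated than with wild-type CTCF by -0.61 ± 0.09 on the log2 scale (SE, adjusted p = 3.42e-07), and lower than in the depleted control by -0.39 (adjusted p = 0.000468). Both calls held in all 17 settings. The rises of 0.26 with IAA and 0.23 with wild-type CTCF passed (adjusted p = 0.0156 and 0.0398) and did not hold. The first was lost without any of untreated replicate 1, untreated replicate 2 and control-with-IAA replicate 2, with values of 0.25, 0.27 and 0.19. The second was lost under both rescalings, without the trend and without any one of 5 libraries, and was lowest without control-with-IAA replicate 1 (0.16, adjusted p = 0.286).

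Pcgf2 (Mel18), the other PCGF gene of canonical PRC1, rose by 0.32 with wild-type and 0.38 with mutated CTCF, and had a change of 0.00 with IAA (95% interval -0.16 to 0.17). Pcgf1, of the variant complex with KDM2B and BCOR, rose with IAA by 0.48 (adjusted p = 0.0117) and fell by 0.41 with mutated CTCF (adjusted p = 0.0363). The first call was lost without untreated replicate 2 (0.32, adjusted p = 0.236) or control-with-IAA replicate 2 (0.46, adjusted p = 0.0655). The second was lost without either control-with-IAA library (-0.43 and -0.39) or mutated CTCF replicate 2 (-0.30, adjusted p = 0.242). Pcgf5 fell by 0.28 with mutated CTCF and was lower than with wild-type CTCF by 0.24 on the log2 scale (-0.24, adjusted p = 0.00426). Pcgf3 fell by 0.16 with IAA and rose by 0.14 with mutated CTCF, and both calls were lost without control-with-IAA replicate 1 (-0.14 and 0.12). The first was lost too without untreated replicate 2 (-0.13), and the second without mutated CTCF replicate 1 (0.13) and with median-of-ratios rescaling (0.09, adjusted p = 0.0663). Pcgf6, of the complex with MGA, E2F6 and L3MBTL2, passed in none of the 6 comparisons, and under the alternatives in 1 alone, with wild-type CTCF against the untreated control without untreated replicate 2 (0.19, adjusted p = 0.0475).

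In variant PRC1, 4 of 8 genes passed with IAA, 2 in each direction, and 3 with wild-type CTCF, 1 higher and 2 lower. With mutated CTCF 5 passed, 1 higher and 4 lower. Between the CTCF forms 5 passed, 2 higher and 3 lower with mutated CTCF. Of all tested genes 37.7%, 31.6%, 34.3% and 34.7% passed in these 4 comparisons. Bcor, the corepressor that joins PCGF1 complexes, rose with IAA by 0.25 ± 0.05 (SE, adjusted p = 0.000149), differed by 0.04 from that level with wild-type CTCF (95% interval -0.06 to 0.14), and fell by 0.21 with mutated CTCF (adjusted p = 0.00132). Its libraries held 1238 and 1279 normalized reads untreated, 1495 and 1497 with IAA, 1488 and 1589.7 with wild-type CTCF, and 1261 and 1326 with mutated CTCF. The mutated CTCF libraries thus overlapped the untreated ones and lay below the other 4.

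E2f6, a DNA-binding repressor of the PCGF6 complex, stood at 354 and 357 normalized reads untreated, 395 and 342 with IAA, 366 and 414 with wild-type CTCF, and 274 and 307 with mutated CTCF. The mutated CTCF libraries were the lowest. E2f6 fell by 0.34 against the depleted control (adjusted p = 0.00297) and was lower than with wild-type CTCF by -0.42 ± 0.09 (SE, adjusted p = 0.000303). The first of these calls was lost without control-with-IAA replicate 1 (-0.24, adjusted p = 0.113) or mutated CTCF replicate 1 (-0.26, adjusted p = 0.0656). Yaf2, which takes the CBX place in variant PRC1, was likewise lower with mutated than with wild-type CTCF (-0.36, adjusted p = 9.86e-05). Its close relative Rybp, present at 242 normalized reads per kb against 11.3 for Yaf2, fell by 0.12 with wild-type CTCF and was 0.08 higher with mutated than with wild-type CTCF (adjusted p = 0.0305). This last call was lost without wild-type CTCF replicate 1 (0.07), wild-type CTCF replicate 2 (0.09) or mutated CTCF replicate 1 (0.06).

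L3mbtl2, an MBT gene of the PCGF6 complex, rose by 0.23 with wild-type and by 0.37 with mutated CTCF (adjusted p = 0.00582 and 2.12e-05), with no change that passed for IAA (-0.01, 95% interval -0.14 to 0.12). Bcorl1, the paralog of Bcor, fell by 0.20 with wild-type and by 0.34 with mutated CTCF (adjusted p = 0.0106 and 1.87e-05). The wild-type calls of both genes were lost without control-with-IAA replicate 2 (0.20 for L3mbtl2 and -0.16 for Bcorl1) or wild-type CTCF replicate 2 (0.16 and -0.18). Mga, a large DNA-binding scaffold of the PCGF6 complex, rose by 0.15 with IAA, and Kdm2b, whose CXXC domain carries PRC1 to unmethylated CG sites, fell by 0.15 (adjusted p = 0.000104 and 0.0312). The Kdm2b call was lost without either untreated library (-0.17 and -0.13) or control-with-IAA replicate 1 (-0.10, adjusted p = 0.294).

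In the PRC2 core, 3 of 6 genes fell and 1 rose with IAA, 2 rose with wild-type and 4 with mutated CTCF, and the log2 fold changes ran from -0.20 to 0.32. The shares of all tested genes that passed there in either direction were 37.7%, 31.6% and 34.3%. Ezh2 stood at 7793 and 8087 normalized reads untreated, 7408 and 7408 with IAA, 7418 and 7522 with wild-type CTCF, and 7196 and 7122 with mutated CTCF. The untreated libraries were the highest and the mutated CTCF libraries the lowest. Ezh2 fell by 0.10 with IAA (adjusted p = 0.0128), a change of -6.70%, and that call was lost without untreated replicate 2 (-0.07, adjusted p = 0.111), without either control-with-IAA library, and without the trend. With wild-type CTCF the difference from the depleted control was 0.01 (95% interval -0.05 to 0.08).

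Eed stood at 4796 and 5049.8 normalized reads untreated, 4491 and 4606 with IAA, 5172 and 5345 with wild-type CTCF, and 5819 and 5557 with mutated CTCF. The groups did not overlap and ran upward from the depleted control through the untreated control and wild-type CTCF to mutated CTCF. Eed rose by 0.21 with wild-type and by 0.32 with mutated CTCF (adjusted p = 2.51e-05 and 4.24e-09), and the second call held in all settings. The fall of 0.11 with IAA passed (adjusted p = 0.013) and was lost without untreated replicate 2 (-0.08, adjusted p = 0.177) or control-with-IAA replicate 1 (-0.09, adjusted p = 0.131). Eed overlaps the listed gene E230029C05Rik on the opposite strand.

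Suz12 stood at 9568 and 10211 normalized reads untreated, 10402 and 10292 with IAA, 10578 and 10973 with wild-type CTCF, and 12079 and 12079.6 with mutated CTCF. The mutated CTCF libraries were the highest. Suz12 rose by 0.22 ± 0.03 with mutated CTCF (SE, adjusted p = 4.53e-07) and was 0.16 higher than with wild-type CTCF (adjusted p = 7.02e-05), and the second call was lost only without the mean-variance trend (adjusted p = 0.0767). Its changes of 0.07 with IAA and 0.06 with wild-type CTCF did not pass, and the first passed without untreated replicate 2 (0.11, adjusted p = 0.00752) and with the replicate block. The histone-binding genes differed from each other: Rbbp4 rose by 0.24 with each CTCF form and did not pass with IAA, and Rbbp7 rose by 0.19 with IAA and passed with neither form, although its 0.10 with mutated CTCF (adjusted p = 0.058) passed in 5 alternatives. Ezh1 fell by 0.20 with IAA (adjusted p = 0.0344), a call lost without untreated replicate 1 (-0.14, adjusted p = 0.303), either control-with-IAA library or the trend, and its rise of 0.19 with mutated CTCF was near the threshold (adjusted p = 0.0498) and was lost in 12 of 17.

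Among the 6 PRC2 accessory genes, Aebp2 had the clearest difference between the CTCF forms. Aebp2, on chromosome 6 (GRCm38 chr6:140622663-140678472), makes a zinc-finger protein that, with JARID2, defines 1 of the alternative forms of PRC2. It stood at 5793 and 5827 normalized reads untreated, 6131 and 6190.05 with IAA, 6415 and 6627 with wild-type CTCF, and 4527 and 4391 with mutated CTCF. The mutated CTCF libraries were far below all 6 others. Aebp2 was lower with mutated than with wild-type CTCF by -0.55 ± 0.03 (SE, adjusted p = 3.37e-16) and lower than in the depleted control by -0.47 (adjusted p = 4.35e-14). It was also lower than in the untreated control by -0.38 (adjusted p = 7.07e-12). These calls held in all 17 settings. The rise of 0.08 with IAA had an adjusted p of 0.0494, and it was lost in 12 settings.

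Jarid2 moved the other way from Aebp2 and by little, rising by 0.13 with mutated CTCF against the depleted control (adjusted p = 0.00034) and standing 0.08 above wild-type CTCF (adjusted p = 0.0192). The first value was 0.07 with median-of-ratios rescaling, and its call was lost only without the mean-variance trend. The second call was lost without wild-type CTCF replicate 1 (0.06, adjusted p = 0.196) or either mutated CTCF library. Epop, which links PRC2 to elongin, rose with IAA by 0.37 ± 0.12 (SE, adjusted p = 0.0167), and this call was lost without either untreated library (0.35 and 0.38) or control-with-IAA replicate 2 (0.22, adjusted p = 0.282). Epop was also above the untreated control with wild-type CTCF by 0.62 and with mutated CTCF by 0.55 (adjusted p = 7.95e-05 and 0.000412). The wild-type value was 0.88 without wild-type CTCF replicate 1 and 0.36 without wild-type CTCF replicate 2, and both calls were lost without the mean-variance trend (adjusted p = 0.0598 and 0.0916). Mtf2 fell by 0.11 with wild-type CTCF (adjusted p = 0.00191), a call lost without control-with-IAA replicate 1 (-0.09, adjusted p = 0.0817). Phf1 and Phf19, low Polycomb-like genes related to Mtf2, passed in none of the 6 comparisons, with standard errors of 0.26 and 0.23. Phf19 with wild-type CTCF was near the threshold against the untreated control (-0.53, adjusted p = 0.057) and passed in 5 of 16 alternatives, and it was -0.95 without untreated replicate 1 and -0.12 without untreated replicate 2.

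**Figure D4:**
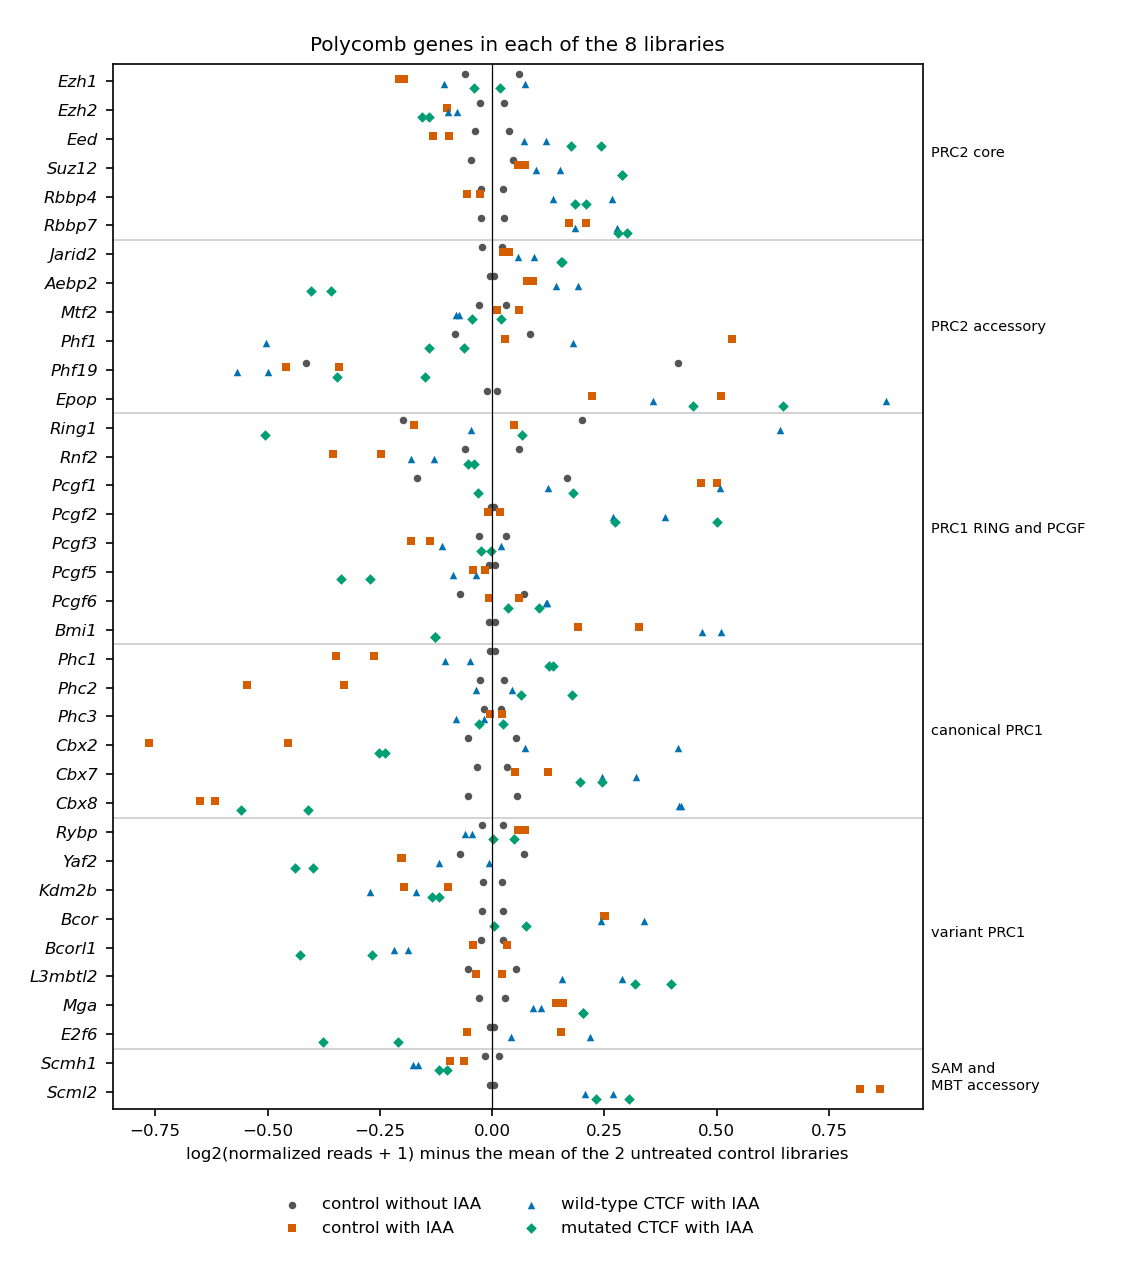
Log2 level of each of the 36 Polycomb genes in each of the 8 libraries, as the difference from the gene's mean over the untreated control libraries, ordered by complex. Scml2 is the row that stands out upward in the 2 control-with-IAA libraries, and Aebp2 and Yaf2 are among the rows that lie lowest in the 2 mutated CTCF libraries.

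Against the untreated control, 20 of the 36 genes passed with wild-type CTCF, 14 higher and 6 lower, and 19 with mutated CTCF, 12 higher and 7 lower. Over all tested genes 43.2% passed with wild-type CTCF (27.6% higher and 15.6% lower) and 37.8% with mutated CTCF (24.0% higher and 13.7% lower). Epop, whose dependence on single libraries and on the trend is given above, alone passed with a change of 0.5 or more in each, against 14.9% and 11.6% of all tested genes. All tested genes were shifted upward by a median of 0.05 in both comparisons, and the splits were 11 higher and 11 lower and 11 higher and 9 lower after median-of-ratios rescaling. With equal totals they were 9 higher and 11 lower, and 11 higher and 13 lower. Pcgf2, Rbbp7, Cbx7 and Scml2 were among the genes higher than in the untreated control with both forms, and these calls held in all 17 settings. Bcorl1 was lower with both (-0.20 and -0.35), and the first of these calls was lost without untreated replicate 2 (-0.18, adjusted p = 0.0798) and without the trend. Bmi1 was higher by 0.49 with wild-type CTCF (adjusted p = 1.37e-05) and differed by -0.13 with mutated CTCF (95% interval -0.30 to 0.05). The untreated control differs from these groups in both IAA and construct, so the effects of the 2 cannot be told apart here.

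Of 33 further Polycomb genes on a separate list, 32 were tested, among them the PR-DUB deubiquitinase, the H3K27 demethylases, other MBT proteins and further subunits of variant PRC1. With IAA 14 passed, 12 higher and 2 lower, with wild-type CTCF 19, 15 higher and 4 lower, and with mutated CTCF 16, 12 higher and 4 lower. Between the CTCF forms 13 passed, 7 higher and 6 lower. The shares of all tested genes that passed were 37.7%, 31.6%, 34.3% and 34.7% in the same order. The 32 genes of the list had a median standard error of 0.042 against 0.103 for all tested genes, so they too pass with smaller changes. Their median absolute log2 fold changes were 0.12, 0.14, 0.13 and 0.09, against 0.19, 0.17, 0.18 and 0.18 for all tested genes. Their median log2 fold changes were 0.07, 0.11, 0.08 and -0.01, where all tested genes had -0.00, 0.06, 0.06 and -0.01. None passed with a change of 1 or more, against 4.30%, 1.90%, 2.69% and 3.87% of all tested genes in the same 4 comparisons. The following were picked out after their values were seen. The MBT gene Sfmbt2 rose with IAA by 0.48 and was lower with mutated than with wild-type CTCF (-0.53, adjusted p = 5.52e-13). L3mbtl1 rose with IAA by 0.60 and was higher with mutated than with wild-type CTCF by 0.91 (adjusted p = 0.000739). Its IAA call was lost without untreated replicate 1 (0.50), control-with-IAA replicate 2 (0.39) or the trend (adjusted p = 0.0559). Asxl3, of PR-DUB, fell by 0.67 with IAA (adjusted p = 5.13e-07), and Csnk2b, a casein kinase subunit found in PCGF5 complexes, rose by 0.75 with wild-type and 0.74 with mutated CTCF.

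Of 31 developmental genes known as Polycomb targets in embryonic stem cells, 12 had a row and only 8 passed the minimum mean, so the list describes the few that were transcribed. With IAA 4 of the 8 passed, Gata4, Gbx2 and Gsc higher and Gata6 lower. With wild-type CTCF 2 passed, Eomes higher and Gata4 lower, and with mutated CTCF 2 passed, Gbx2 and Wt1, both lower. Between the CTCF forms 3 passed, Eomes (-0.81, adjusted p = 0.00272), Gbx2 (-0.66, adjusted p = 0.000388) and Wt1, all lower with mutated CTCF. The shares of all tested genes that passed in these 4 comparisons were 37.7%, 31.6%, 34.3% and 34.7%. The 8 target genes had median log2 fold changes of 0.27, -0.22, -0.23 and -0.11. Leaving out 1 library ended the IAA calls of Gsc and Gata6, both wild-type CTCF calls, and the Gbx2 call with mutated CTCF. Without control-with-IAA replicate 2, Gsc was 0.68, Eomes with wild-type CTCF 0.47 and Gbx2 with mutated CTCF -0.34. Without control-with-IAA replicate 1, Gata6 was -0.36 and Gata4 with wild-type CTCF -0.32. Gata6 was also lost without untreated replicate 2 (-0.34), and Gbx2 without mutated CTCF replicate 1 (-0.30). Without that library the Eomes difference between the forms was -0.57 and did not pass (adjusted p = 0.0828), nor did it without the trend (adjusted p = 0.085). Wt1, a zinc-finger regulator of kidney and gonad development, had the largest change. Its libraries held 19.2 and 17.2 normalized reads untreated, 20.2 and 28.6 with IAA, 19.2 and 16.0 with wild-type CTCF, and 4.18 and 0.989 with mutated CTCF. The mutated CTCF libraries were below all 6 others, and the value of the second was the smallest above 0 in that library, which would be 1 read. Wt1 fell by 2.97 with mutated CTCF against the depleted control and differed from wild-type CTCF by -2.53 (adjusted p = 1.87e-07 and 3.49e-06). Both calls held in every alternative that tested Wt1, while the values ran from -3.66 to -1.45 and from -3.22 to -1.14, and were smallest with a pseudocount of 10.

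Reads were assigned by the authors in a way the sources used here do not describe as stranded or unstranded, although the libraries kept strand. For 9 of the 36 genes another listed gene overlaps on the opposite strand (Eed, Rbbp4, Rbbp7, Mtf2, Phf1, Rnf2, Cbx7, Kdm2b and L3mbtl2), and reads of such pairs may have been mixed.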

How the data were processed

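TT-seq libraries from 4 groups of 2 replicates were grouped by their sample titles, which also gave the replicate numbers. The authors deposited 1 table of normalized counts, a signal per gene and library. Per the submitters' processing notes the tools were Trim Galore, STAR, featureCounts and DESeq2, with the build mm10; versions and settings are not given in the sources used here. All deposited values were whole multiples (tolerance 0.01) of 1 step per library, as reads divided by 1 factor per library would be, although the sources used here do not state it. The steps were 0.836 to 1.19 normalized reads, and that of mutated CTCF replicate 2 (0.989) is close to the step of undivided counts. If 1 step is 1 read, depth was 15671114 to 21561141 reads, so the lowest genes rest on few reads and carry more counting error.

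limma 3.58.1 in R 4.3.3 was fitted to log2(value + 1) with a mean-variance trend and 1 coefficient per group over all 8 libraries (4 residual degrees of freedom). Genes with a mean of at least 10 were tested, with Benjamini-Hochberg adjustment within each of 6 comparisons at 0.05. The log2(value + 1) scale understates changes of low genes. Positions are from GENCODE M21 (GRCm38, the same assembly as mm10) by gene ID, and 16917 listed IDs were found there. Promoters are from RefSeq on GRCm38.p6, with 250 bases before and 50 after the start.

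A gene of the list was given library by library where it passed with a log2 change of 0.5 or more, up or down, in 1 of the first 4 comparisons. Ezh2, Eed, Suz12, Ring1, Rnf2 and Scml2 were given so whatever their values. Genes shown library by library outside this rule (Bcor, E2f6, Wt1) were examples; Wt1 had passed with a change of 1 or more, the rule for naming genes of the further lists. The members and lists were chosen with earlier results of these data known. The 17 alternatives were other pseudocounts (0.5 and 10), other filters (none, and a mean of 50), other scalings (median of ratios, equal totals), a fit of the compared groups alone, a fit without the trend, a replicate block, and the removal of single libraries (8 fits). The gene targeted by the degron and a few other listed genes are not reported here, and the list counts leave them out.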

Additional observations from a re-analysis of the deposited data

Results flagged for a closer look

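The 2 CTCF forms, each measured with IAA, were compared directly, and 15 of the 36 Polycomb genes differed by that limma test. Higher with mutated CTCF were Phc1 (0.21), Suz12 (0.16), Eed (0.11), Rnf2 (0.11), Mga (0.10), Jarid2 (0.080) and Rybp (0.079 on the log2 scale). Lower with mutated CTCF were Cbx8 (-0.90), Bmi1 (-0.61), Aebp2 (-0.55), Cbx2 (-0.49), E2f6 (-0.42), Yaf2 (-0.36), Bcor (-0.25) and Pcgf5 (-0.24). The calls of Phc1, Bmi1, Aebp2, E2f6, Yaf2, Bcor and Pcgf5 held under all 17 alternative settings, and the other 8 were lost under at least 1. Among all tested genes 34.7% differed in the same test. Each group had 2 libraries, too few to test a single library for standing apart.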

How the results depend on the processing

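Of the 216 log2 fold changes of Polycomb genes (36 genes in 6 comparisons), 1 that had passed changed sign: Jarid2 with wild-type CTCF against the untreated control was -0.0071 with equal totals, where it did not pass (adjusted p = 0.802). Without the mean-variance trend fewer Polycomb genes passed: 8 with IAA, 5 with wild-type CTCF, 13 with mutated CTCF, 8 between the CTCF forms and 10 with wild-type CTCF against the untreated control. The further Polycomb genes then numbered 6, 5, 9 and 8 in the first 4 comparisons, against 14, 19, 16 and 13 with the trend. Over all tested genes the counts were 3946 with IAA, 2379 with wild-type CTCF, 3228 with mutated CTCF, 3263 between the forms and 3869 with mutated CTCF against the untreated control. Of the target genes, limma without the trend then called 0 with wild-type CTCF (3 at an unadjusted p under 0.05) and 1 with mutated CTCF; with no filter 4, and with a minimum mean of 50 only 1, passed with mutated CTCF. Leaving out each library in turn gave 10 to 17 Polycomb genes with IAA, 10 to 16 with wild-type CTCF, 16 to 22 with mutated CTCF and 8 to 16 between the forms. For the further Polycomb genes the ranges were 9 to 15 and 9 to 19 with IAA and wild-type CTCF, for the targets 3 to 4 with IAA, 1 to 2 with wild-type and 1 to 3 with mutated CTCF, and over all tested genes 3270 to 5077 with wild-type CTCF. Gene by gene, same-numbered libraries did not deviate together (mean correlation 0.0037, from -0.022 to 0.028 over 6 pairs of groups). Over all tested genes, however, replicate 2 stood above replicate 1 in every group, by a median of 0.026 to 0.050 on the log2 scale. With the replicate number as a block, 20, 19, 22 and 17 Polycomb genes passed in the first 4 comparisons against 18, 15, 21 and 15 without it, and over the 6 comparisons 10 results gained a call and 0 lost one. Count tests with edgeR and DESeq2 on the inferred reads were not run. The causes of these differences were not tested.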

Other observations

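Listed genes next to the Polycomb genes with the largest changes were looked up after the values were seen, and are given as values only. Not all of these neighbours are named here. Of all tested genes 31.6% passed with wild-type CTCF, 34.3% with mutated CTCF and 34.7% between the CTCF forms. Gm44013, which ends 240 bases before Aebp2, had group means of 14.9, 14.4, 18.1 and 6.13 normalized reads in the untreated control, the control with IAA, wild-type CTCF and mutated CTCF. It was lower with mutated CTCF than with wild-type CTCF by a log2 fold change of -1.43 (limma adjusted p = 0.00344), while Plekha5, 25.6 kb before Aebp2, differed by 0.00 (adjusted p = 0.932). Beside Scml2, whose CTCF forms did not differ past the threshold, Gm15262 (29.2 kb away) and Nhs (575.1 kb away) were both lower with mutated than with wild-type CTCF by -1.39. Commd3, 787 bases before Bmi1, differed between the CTCF forms by -0.27 without passing (adjusted p = 0.118). The other neighbours looked up beside Aebp2 and Bmi1 did not pass in that comparison. Beside Phc2, Zscan20 was lower with mutated than with wild-type CTCF (-0.46, limma adjusted p = 0.000748), while A3galt2 (0.22) and Zfp362 (-0.17) did not pass. Tbc1d16, 102.1 kb beyond Cbx8, rose by 0.62 with wild-type and by 0.86 with mutated CTCF.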
